A study of Mus musculus with 30 samples.

Results

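Wild-type mouse liver was compared with 4 other wild-type tissues, testis, skeletal muscle, brain and heart. The members were chosen by their sample titles: 3 liver arrays were set against 12 arrays of the other tissues, 3 per tissue, which is 15 of the 30 arrays in the series. All 15 carried RNA from C57BL/6 wild-type littermates of mice without ClpP, a peptidase of mitochondria. No treatment was named for any of these groups, and the mice had free access to food and water under a light-dark cycle. The 15 knockout arrays entered no comparison and served only to choose the probe set of a gene. The labels give no age, sex or time of collection, and they do not say that replicates came from separate animals or whether the same animals gave all 5 tissues. The p-values therefore measure the spread between these samples, which may be technical.

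Total RNA of whole tissue was amplified from the 3' end, labelled with biotin and hybridised to Affymetrix mouse arrays. Each of 17097 genes was read by 1 probe set, and its value is a log2 expression value, on which a difference of 1 is a 2-fold change. The array medians ranged from 3.24 to 3.38. Precision is limited by the number of arrays. The difference given for a gene is its liver mean minus the mean of the 4 other tissue means, with the standard error (SE) of the limma fit from 3 liver arrays against 12 others. A gene was called when its two-sided p, adjusted over all genes by the method of Benjamini and Hochberg, was below 0.05. Signal of probe sets without target RNA does not go to 0 on these arrays, so a difference whose lower group mean lay under 4 is a lower bound. Values of different genes come from different probes and were not set against each other. In whole tissue, fewer cells of a type and less RNA per cell cannot be told apart.

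The liver is built mainly of hepatocytes, which secrete most proteins of blood plasma, including albumin, clotting factors, complement and lipoproteins. Hepatocytes also make glucose and ketone bodies for other organs, dispose of ammonia as urea, form bile acids from cholesterol and modify drugs and hormones with cytochrome P450 and conjugating enzymes. Around them lie sinusoidal endothelial cells, Kupffer cells (the resident macrophages), stellate cells, which store vitamin A, and the cholangiocytes of the bile ducts. The factors HNF1, HNF4, FOXA and C/EBP are known regulators of hepatocyte genes.

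Liver differed from the mean of the other tissues in 11020 genes, 64.5% of those tested, of which 4243 (24.8%) were higher and 6777 (39.6%) were lower in liver. By at least 1, 2255 genes (13.2%) were higher and 3566 (20.9%) lower, and the differences ran from -7.40 to 10.66. The 2 ends of this range are not alike, because a gene high in only 1 other tissue keeps only a part of its difference from that tissue. Markers of skeletal muscle fibres, for example, had a median of -9.78 against muscle but -2.69 against the mean of 4. Among 9849 genes whose mean reached 6 in 1 or more tissues, 31.3% were higher and 52.6% lower. The median difference over all genes was -0.12. When each array was instead centred on its median over the genes tested, a choice made after the data were seen, the median difference was 0.18 and 59.7% of called genes were higher in place of 38.5%, so the direction of differences this small depends on the centring. A gene was termed highest in liver when it was called and its liver mean exceeded the highest other tissue mean by at least 1. This held for 1236 genes (7.23%), and the reverse, lowest in liver, for 370 genes (2.16%). All 3 liver arrays lay above all 12 others for 1947 genes (11.4%) and below all 12 for 1118 genes (6.54%).

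**Figure D1:**
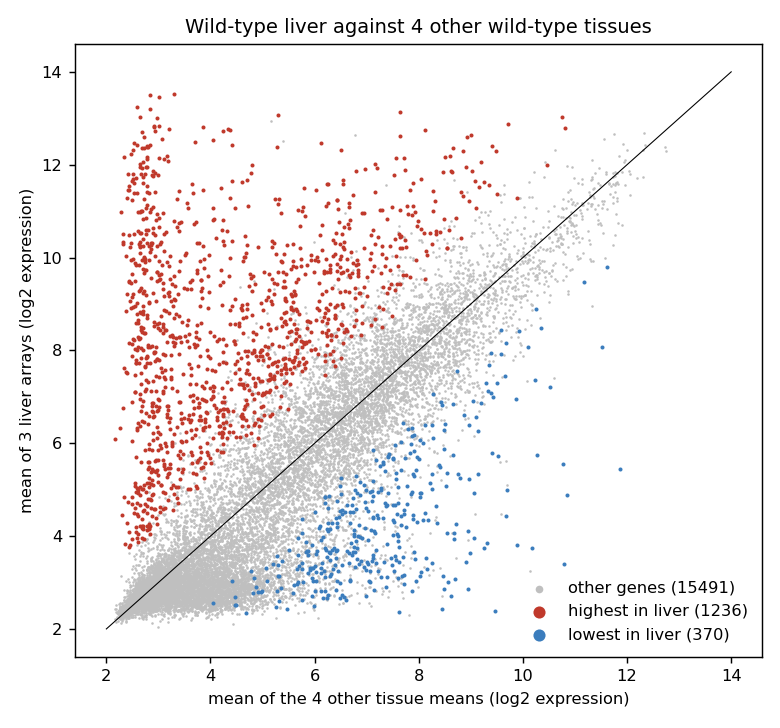
Mean log2 expression on the 3 liver arrays (vertical axis) against the mean of the 4 other tissue means (horizontal axis), 1 point per gene, with the line of equal values. The 1236 genes highest in liver are red and many rise steeply at the left edge, where the other tissues are near background; the 370 genes lowest in liver are blue.

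Across genes, which are not independent replicates, the liver arrays correlated with each other at r = 0.985 to 0.993. They correlated at 0.731 to 0.744 with heart arrays, 0.702 to 0.721 with muscle, 0.623 to 0.651 with brain and 0.462 to 0.509 with testis. Liver was higher than testis in 5302 genes (31.0%), than brain in 5174 (30.3%), than muscle in 3777 (22.1%) and than heart in 3422 (20.0%). It was lower than testis in 5647 genes (33.0%), than brain in 4899 (28.7%), than muscle in 4507 (26.4%) and than heart in 4462 (26.1%). These 4 comparisons share the liver arrays.

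The labelled tissue matched its markers: 12 of 12 hepatocyte markers were higher in liver and 11 were highest in liver. The exception was transthyretin, Ttr, which was 13.04, 13.02 and 12.77 on the liver arrays and 12.79, 12.97 and 11.19 on the brain arrays, where the choroid plexus is a known source. Markers of other tissues appeared on single arrays of the comparison groups. The epididymal gene Lcn5 was 2.83, 2.82 and 11.70 on testis arrays 1 to 3, the protamine gene Prm1 reached 8.11 on muscle array 1 against 3.13 and 2.93 on the other muscle arrays, and Alb was 3.40, 5.53 and 3.19 on the heart arrays. Without the testis and muscle arrays concerned, the counts were 4200 genes called higher in liver and 6773 genes called lower in liver. Clpp was 8.77, 8.75 and 8.70 on the liver arrays, and the male-specific Eif2s3y was 7.68, 7.64 and 7.79 while Xist was 2.81, 3.01 and 3.06.

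Genes of secreted plasma proteins were prominent among the largest differences. The 15 largest positive differences, among called genes with all 3 liver arrays above all 12 others and a liver mean of at least 6, ran from 9.82 to 10.66. In these 15 genes the liver means lay between 12.17 and 13.52 and the means of the other tissues between 2.29 and 4.04, and the largest adjusted p in limma was 1.99e-12. The alpha-1 antitrypsin genes headed them, Serpina1c at 10.66 ± 0.08 and Serpina1b at 10.66 ± 0.12; they are near-identical copies whose signals can mix. Albumin, Alb, the main protein of plasma, was 13.45, 13.49 and 13.45 on the liver arrays and 2.33 to 5.53 on the others, a difference of 10.45 ± 0.33. Its liver arrays stood far above the highest other array, which was heart replicate 2. Fabp1, the liver fatty acid-binding protein, followed at 10.38 ± 0.10, with liver values of 13.04, 13.22 and 12.81. The lipoprotein genes Apoc3, Apoa2 and Apoa1 differed by 10.37 ± 0.07, 10.21 ± 0.12 and 10.03 ± 0.09. The clotting genes Fgb and Fgg, which encode fibrinogen chains, differed by 10.02 ± 0.12 and 9.89 ± 0.11, plasminogen (Plg) by 9.93 ± 0.10 and antithrombin (Serpinc1) by 9.88 ± 0.10. The remaining 4 were the P450 enzyme Cyp3a11 at 9.93 ± 0.10, the tyrosine-catabolic enzyme Hpd at 9.85 ± 0.08, the glucuronosyltransferase Ugt2b5 at 9.82 ± 0.09 and the protease inhibitor Pzp at 9.82 ± 0.10.

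**Figure D2:**
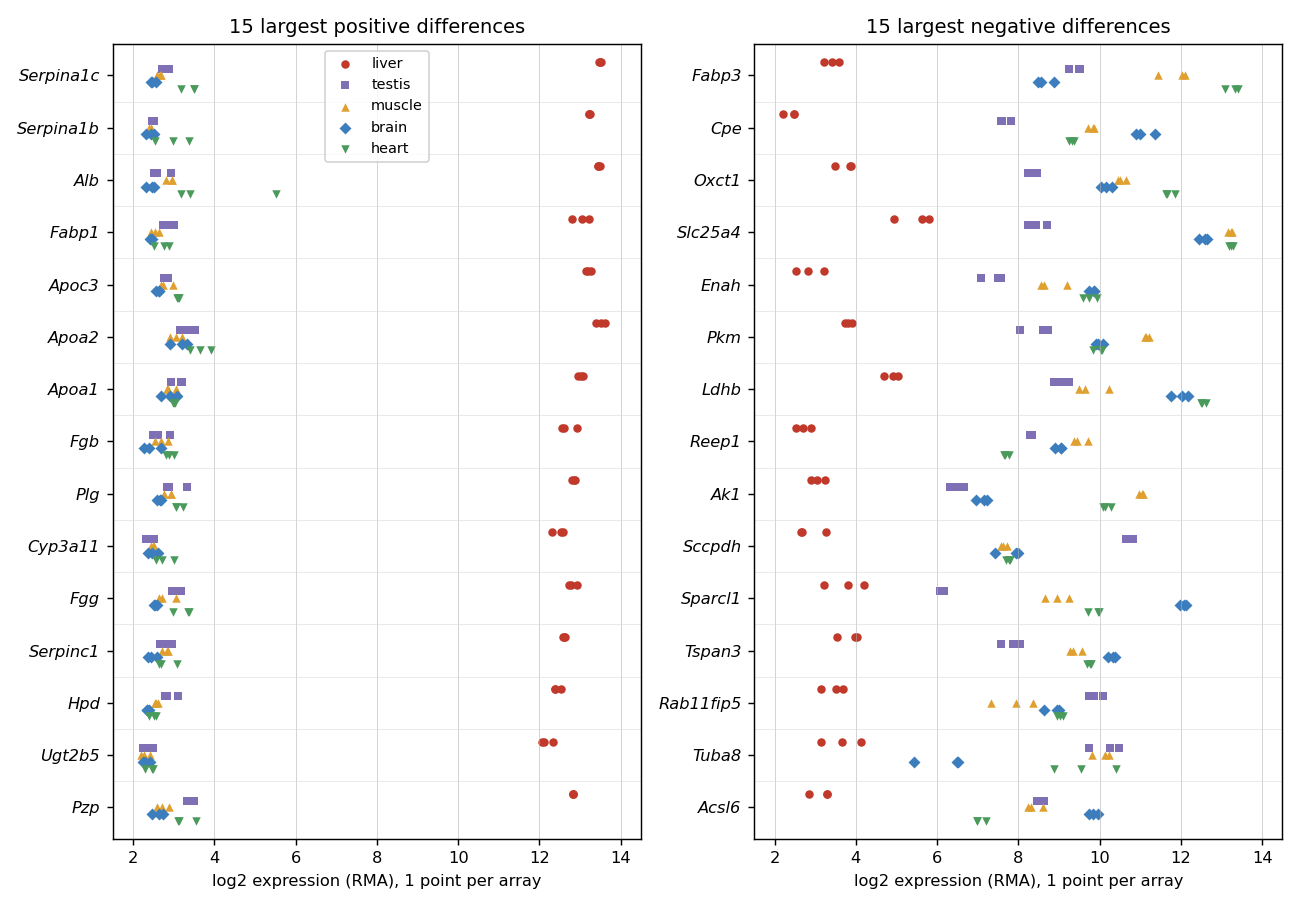
Log2 expression on each of the 15 arrays (horizontal axis, 1 point per array, coloured by tissue) for the 15 genes with the largest positive (left) and the 15 with the largest negative differences (right). At the left all liver points lie above 12 and all but 1 of the other points below 4; at the right the liver points are the lowest of each row.

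Promoter sequences are shown for 4 of these genes because each holds letters of a motif bound by a hepatocyte factor or the TATA box. They are the 150 bases before the RefSeq transcription start in GRCm38.p6, written 5′ to 3′ on the gene's strand, with capitals for the motif letters. The albumin window is chr5:90460720-90460869 on the plus strand, the Fgb window chr3:83049864-83050013 on the minus strand, the Fabp1 window chr6:71199729-71199878 on the plus strand and the Cyp3a11 window chr5:145879855-145880004 on the minus strand.
Alb: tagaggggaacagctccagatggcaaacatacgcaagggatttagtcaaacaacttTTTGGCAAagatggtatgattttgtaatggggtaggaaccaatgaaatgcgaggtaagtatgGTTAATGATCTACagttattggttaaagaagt
Fgb: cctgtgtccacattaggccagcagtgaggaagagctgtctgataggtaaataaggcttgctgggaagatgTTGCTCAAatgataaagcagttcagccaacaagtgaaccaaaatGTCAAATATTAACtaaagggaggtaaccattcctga
Fabp1: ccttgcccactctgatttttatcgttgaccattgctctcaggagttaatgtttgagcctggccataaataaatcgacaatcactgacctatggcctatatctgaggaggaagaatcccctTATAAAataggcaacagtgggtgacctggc
Cyp3a11: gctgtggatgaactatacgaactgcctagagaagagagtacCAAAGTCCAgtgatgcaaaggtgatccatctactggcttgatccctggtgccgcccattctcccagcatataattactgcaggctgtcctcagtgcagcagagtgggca
In the Alb window the capitals are a C/EBP match 94 to 87 bases before the start, on the opposite strand, and an HNF1 match at 32 to 20. In the Fgb window they are a C/EBP match at 80 to 73 and an HNF1 match at 36 to 24. The Fabp1 window holds a TATA box at 30 to 25, and the Cyp3a11 window holds an HNF4 match without mismatch at 109 to 101. Both HNF1 matches differed from the motif in 2 letters.

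The same letters were counted in all RefSeq promoter windows of 300 bases (250 before and 50 after the start). Of the 1236 genes highest in liver, 1008 had a window, which gave 1303 windows; genes with several starts have several. Beside these, the same search covered 16953 windows of all measured genes, from which the genes highest in liver are drawn, and all 32851 windows. The HNF1 motif, the palindrome named for that factor and searched with at most 2 mismatches, was found in 4.68% of the windows of genes highest in liver, in 1.10% of those of measured genes and in 1.36% of all windows; of the 406 windows of genes lowest in liver 0 held it. The HNF4 motif CAAAGTCCA, with at most 1 mismatch, was found in 14.8%, 7.66% and 8.47% of the same 3 sets of windows, and in 6.65% of those of genes lowest in liver. The FOXA motif TGTTTAC was found in 6.06%, 2.94% and 3.65%, and in 0.985%. The C/EBP motif TTGCNNAA was found in 15.7%, 9.34% and 10.8%, and in 5.91%. The TATA box TATAAA was found in 15.1%, 9.99% and 13.6%, and in 7.64%. For each motif the share was larger in windows of genes highest in liver than in windows of measured genes. Both strands were searched, each motif separately, so that matches could overlap. A match is a description of these letters, no test was made, and binding was not measured.

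Plasma carriers and carrier-like hormones were higher in liver as a group. Of 27 measured members, 25 were higher, 0 lower and 2 not called, with a median difference of 6.94. Over all genes 24.8% were higher, 39.6% lower and the median was -0.12. Every list count below is to be read beside these shares, and a count against a single tissue beside the shares given above for that tissue. After Alb came Ambp, the precursor of alpha-1-microglobulin, at 9.80 ± 0.09, the haem carrier hemopexin (Hpx) at 9.56 ± 0.14 and Azgp1 at 9.49 ± 0.10. The retinol carrier Rbp4 differed by 8.50 ± 0.31, haptoglobin (Hp) by 7.77 ± 0.43 and the growth factor Igf1, the main target of growth hormone in liver, by 4.92 ± 0.33. The selenium carrier Selenop had the smallest called difference, 2.28 ± 0.10: it was 13.03 in liver and 11.54 in brain. Fetal albumin, Afp, stayed at 3.36, 3.10 and 3.48 on the liver arrays and was not called, nor was Shbg, whose liver mean was 2.87.

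Clotting genes were mostly higher in liver, and no complement gene was lower. In the coagulation list 25 of 32 members (78.1%) were higher and 6 (18.8%) lower in liver, against 24.8% and 39.6% over all genes. Prothrombin (F2) differed by 9.67 ± 0.09, kininogen (Kng1) by 9.35 ± 0.09, and the factors F12, F9, F10, F5, F7 and F11 by 8.21, 7.59, 7.03, 6.11, 6.07 and 4.50. Factor VIII, F8, which sinusoidal endothelium makes, was low on these arrays, with a liver mean of 4.30 and a difference of 1.16 ± 0.10. The 6 lower members were Plat, Vwf, Thbd, F3, Serpina5 and Tfpi, of which Plat (tissue plasminogen activator) differed most, by -3.04 ± 0.13, and the endothelial genes Vwf and Thbd by -1.82 ± 0.19 and -1.83 ± 0.19. Tfpi, at -0.39 ± 0.09, was not called after quantile normalization (-0.17, adjusted p = 0.17). Of 30 complement genes 26 were higher and 0 lower. The terminal component C9 differed by 9.34 ± 0.16, C5 (gene symbol Hc) by 9.08 ± 0.11 and the lectin Mbl2 by 8.81 ± 0.12. The 3 chains of C1q, which macrophages make, were not called: C1qa was 6.46 in liver and 7.65 in heart.

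The apolipoprotein list gave 25 higher and 2 lower of 28 members, with a median difference of 6.34. Apolipoprotein B, the scaffold of very-low-density lipoprotein, was 10.56, 10.14 and 9.95 in liver, a difference of 7.57 ± 0.11, and Mttp, which loads it with lipid, differed by 4.79 ± 0.20. Apoe was also made in brain: its mean was 10.83 there and 12.74 in liver. The lower members were Apod, at -4.51 ± 0.64 and with a brain mean of 11.30, and lipoprotein lipase (Lpl), at -2.36 ± 0.63 and with a heart mean of 12.96.

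Enzymes that dispose of nitrogen were higher in liver as a group. In the urea list 16 of 20 members (80%) were higher and 1 (5%) lower, against 24.8% and 39.6% over all genes. The enzymes of the cycle and Nags, which makes its activator, were all higher: Cps1 by 9.59 ± 0.14, Otc by 8.89 ± 0.08, Ass1 by 6.75 ± 0.20, Asl by 5.42 ± 0.18, Arg1 by 9.05 ± 0.09 and Nags by 5.09 ± 0.15. The ornithine carrier Slc25a15 differed by 4.96 ± 0.15, whereas the other carrier of that kind, Slc25a2, was at -1.37 ± 0.08, with a testis mean of 7.50. Arginase 2 was not called, and its liver mean was 2.40. Of 39 genes of amino acid breakdown 37 were higher and 2 lower, with a median of 6.37. Tyrosine breakdown was represented by Tat (7.63 ± 0.09), Hpd, Hgd (8.97 ± 0.08) and Fah (5.70 ± 0.12), and tryptophan breakdown by Tdo2 (9.13 ± 0.09). The methionine cycle enzymes Mat1a and Gnmt differed by 9.05 ± 0.09 and 8.48 ± 0.24, and Bhmt, which remakes methionine from betaine, by 8.36 ± 0.15, with a testis mean of 9.77. The 2 lower members were the branched-chain aminotransferases Bcat2 (-0.51 ± 0.13) and Bcat1 (-0.94 ± 0.09). They start the breakdown of branched-chain amino acids, which in mammals is known to begin outside the liver.

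Genes that release glucose were higher in liver, but with more exceptions. In the list of gluconeogenesis, glycogen and fructose 19 of 27 members were higher, 6 lower and 2 not called. Glucose-6-phosphatase (G6pc), the last step of glucose release, was 10.15, 10.12 and 9.79 on the liver arrays and 2.47 to 2.92 on the others, a difference of 7.29 ± 0.08. The glucose transporter Slc2a2 differed by 8.11 ± 0.11, the glucokinase regulator Gckr by 6.66 ± 0.10, the glucagon receptor Gcgr by 5.69 ± 0.11, ketohexokinase (Khk) by 5.62 ± 0.12 and pyruvate carboxylase (Pcx) by 3.44 ± 0.19. The probe set of Pck1, phosphoenolpyruvate carboxykinase, gave 2.77, 2.60 and 2.48 on the liver arrays and 2.30 to 2.72 on the others, so it showed no signal above the array median in any tissue.

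Bile acid genes were higher in 32 of 34 cases, with a median difference of 5.48. The synthetic enzymes Cyp8b1, Cyp7b1 and Akr1d1 differed by 7.83 ± 0.12, 7.63 ± 0.28 and 6.45 ± 0.13. Cyp7a1, the rate-limiting enzyme, was 6.98, 7.95 and 9.48 on the liver arrays and 2.27 to 2.70 on the others, a difference of 5.65 ± 0.33; its liver arrays spread over more than 2 log2 units but did not overlap the others. Conjugation with an amino acid was represented by Slc27a5 (9.23 ± 0.09) and Baat (7.03 ± 0.09). Uptake from blood was represented by Slc10a1 (8.33 ± 0.09) and Slco1b2 (8.86 ± 0.11), and export into bile by Abcb11 (7.28 ± 0.13) and Abcc2 (7.27 ± 0.11). The lower member was the exporter Abcc4, at -1.66 ± 0.15.

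Cytochrome P450 genes and their redox partners were higher in 41 (91.1%) and lower in 1 (2.22%) of 45 cases, against 24.8% and 39.6% over all genes. Beyond Cyp3a11, the largest were Cyp2c50 at 9.76 ± 0.07, Cyp2d10 at 9.19 ± 0.08, Cyp3a25 at 9.14 ± 0.08, Cyp2d9 at 9.03 ± 0.09 and Cyp2e1, the ethanol-inducible enzyme, at 8.94 ± 0.59. Cyp2e1 was 12.84, 12.92 and 12.65 on the liver arrays and 5.16, 4.91 and 8.03 on the muscle arrays. Members of the Cyp2c, Cyp2d and Cyp3a families are close copies, so a probe set can read more than 1 of them. Cyp1b1 was the lower member (-1.38 ± 0.21). Conjugating and detoxifying enzymes were higher in 51 of 52 cases and lower in 1. Urate oxidase (Uox), which mice have kept and humans lost, was 12.35, 12.34 and 12.23 on the liver arrays, a difference of 9.79 ± 0.09. The carboxylesterase Ces1c differed by 9.59 ± 0.10, the sulfotransferase Sult2a8 by 9.16 ± 0.09 and the glucuronosyltransferases Ugt2b1 and Ugt2b34 by 9.02 ± 0.08 and 8.70 ± 0.08. Of glutathione S-transferases, Gstt1 was higher by 4.90 ± 0.19 and Gstp1 by 1.99 ± 0.15, and Gstm5, whose testis mean was 12.78, was the lower member at -3.30 ± 0.12.

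Genes that hepatocytes of the 2 ends of the lobule are known to favour were both measured in bulk. 15 of 16 periportal genes and 17 of 18 pericentral genes were higher in liver. The medians were 6.92 and 4.15, which compares no levels between the zones. Periportal examples were Cyp2f2 at 8.80 ± 0.21 and Hsd17b13 at 8.17 ± 0.08, and pericentral examples were Cyp1a2 at 8.91 ± 0.13 and Lect2 at 7.41 ± 0.11. The Wnt target Axin2 was not called, with a liver mean of 4.56.

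Genes of fatty acid oxidation were mostly higher in liver than in the mean of the others, but not than in heart. In the list of fatty acid oxidation and ketone bodies 27 of 37 members were higher than the mean and 7 lower. Against heart alone 13 were higher and 17 lower, and against testis 30 and 6. Over all genes 20.0% were higher and 26.1% lower against heart, and 31.0% and 33.0% against testis. Among the members highest in liver were peroxisomal enzymes and regulated steps: the thiolase Acaa1b differed by 9.58 ± 0.21, Ehhadh by 6.09 ± 0.17 and the liver form of carnitine palmitoyltransferase, Cpt1a, by 3.67 ± 0.21. The nuclear receptor Ppara, which drives these genes, differed by 3.70 ± 0.22. The mitochondrial dehydrogenase Acadm was 11.62 in liver and 12.71 in heart, and its difference from the mean of 4 was 1.51 ± 0.13. The lower members included Oxct1 at -6.44 ± 0.10, the enzyme that other organs need to use ketone bodies; it was 3.49, 3.85 and 3.89 on the liver arrays and 11.63, 11.66 and 11.85 on the heart arrays. The muscle form Cpt1b was at -3.83 ± 0.17 and Acsl6 at -5.31 ± 0.11.

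Lipid synthesis and the peroxisome were higher as groups. Of 38 genes of fatty acid, triglyceride and sterol synthesis 35 were higher and 1 lower, with a median of 3.06. The elongases Elovl3 and Elovl2 differed by 8.31 ± 0.15 and 5.36 ± 0.12, the desaturase Scd1 by 4.97 ± 0.49 and fatty acid synthase (Fasn) by 3.47 ± 0.50. Among sterol genes Sc5d differed by 4.52 ± 0.15 and Ebp by 4.09 ± 0.19. Lpin1, which is strong in muscle, was the lower member at -1.01 ± 0.24. Of 40 peroxisomal genes 34 were higher and 2 lower. The matrix enzymes Hao1, Acox2 and Agxt were higher by 7.76 ± 0.08, 7.43 ± 0.09 and 7.23 ± 0.12, and the assembly factors Pex7 and Pex13 by 1.92 ± 0.09 and 0.70 ± 0.10. The lower members were Gnpat (-1.30 ± 0.10) and Agps (-1.02 ± 0.10), the first enzymes of ether lipid synthesis.

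Compared with the mean of 4, iron genes were mostly higher in liver, which is known to sense and store body iron. Of 33 members 26 (78.8%) were higher and 5 (15.2%) lower, against 24.8% and 39.6% over all genes. The size depended on the tissue. In testis, brain, muscle and heart order, 27, 24, 18 and 17 members were higher and 1, 5, 5 and 6 lower. The median differences were 3.22 against testis, 2.26 against brain, 0.65 against muscle and 0.36 against heart. Hepcidin (Hamp), the hormone that limits iron uptake, was 11.72, 11.68 and 11.68 on the liver arrays and 2.24 to 2.82 on the others, a difference of 9.19 ± 0.11. The iron sensor Tfr2 differed by 7.31 ± 0.11, the hepcidin inhibitor Tmprss6 by 6.38 ± 0.13 and transferrin (Trf) by 5.48 ± 0.26. The uptake receptor Tfrc was lower, at -1.17 ± 0.35; without liver replicate 1 its adjusted p was 0.0621. Metallothionein Mt1 was also lower, at -3.20 ± 0.26, with liver values of 7.87, 6.81 and 7.51 and a brain mean of 11.84; its probe set not shared with other sequences gave -0.09 (adjusted p = 0.563).

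Acute phase genes, which liver raises in inflammation, were higher in 29 of 30 cases, with a median of 7.34. Many of them are plasma proteins at all times. C-reactive protein (Crp) differed by 7.79 ± 0.10 and the inhibitor Mug1 by 9.39 ± 0.09. The serum amyloid genes Saa1 and Saa2 differed by 6.98 ± 0.54 and 6.35 ± 0.53, with wide errors. The lower member was A2m, at -1.45 ± 0.35. Lcn2 was called at 1.77 ± 0.61 (adjusted p = 0.0191), but its testis mean was 10.15 and its liver values were 6.01, 5.68 and 9.17; without liver replicate 3 its adjusted p was 0.236.

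Sex-biased and growth hormone-regulated liver genes gave 25 (75.8%) higher, 2 (6.06%) lower and 6 not called of 33, against 24.8% higher and 39.6% lower over all genes. Some genes known to favour male liver were strong: the urinary protein Mup3 was 12.17, 12.31 and 12.62, Elovl3 11.12, 10.52 and 11.59, Cyp4a12a 9.43, 9.07 and 9.54 and Hsd3b5 9.32, 9.46 and 10.87. Not every member of the list was strong on all liver arrays. Moxd1 was not called (2.31 ± 1.07, adjusted p = 0.0741 in limma), and its values on the liver arrays are given below. Mup3 belongs to a cluster of near-identical genes and can carry their signal. Genes known to favour female liver gave mixed calls. Cyp2b9 was higher by 2.30 ± 0.59, with liver values of 4.99, 7.38 and 2.66, and Cyp3a41a by 1.38 ± 0.22, with a liver mean of 3.97; Cyp3a16 and Sult3a1 were not called, with liver means of 2.65 and 2.54, and Cux2 was at -1.31 ± 0.22, with a liver mean of 3.93.

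Liver transcription factors were mostly higher. Of 49 measured factors 36 were higher, 5 lower and 8 not called, and 24 were highest in liver. Single tissues differed: 41 were higher and 0 lower against testis and 35 and 4 against brain, but 30 and 8 against muscle and 31 and 8 against heart. Hnf4a stood first: it was 11.08, 11.06 and 10.82 on the liver arrays and 2.61 to 3.33 on the others, a difference of 8.15 ± 0.12. The bile acid receptor Nr1h4 differed by 6.15 ± 0.10, Creb3l3 by 6.06 ± 0.11, Hhex by 5.69 ± 0.14 and Cebpa by 5.50 ± 0.21. The onecut factors Onecut2 and Onecut1 differed by 5.62 ± 0.12 and 5.11 ± 0.24. The 3 FOXA factors all differed: Foxa1 by 5.22 ± 0.15, Foxa3 by 5.03 ± 0.15 and Foxa2 by 4.20 ± 0.19. The drug receptors Nr1i3 and Nr1i2 differed by 5.30 ± 0.19 and 4.56 ± 0.12, and Nr5a2 by 5.31 ± 0.11. Smaller positive differences were seen for Mlxipl, Prox1, Nr0b2, Atf5, Tbx3, Cebpb, Nr1h3, Rxra, Klf15, Nr2f6, Pparg and Nr2f2, from 2.01 to 4.03. Those of Nfil3, Xbp1, Nr3c1, Zbtb20, Nfib, Nfia, Cebpg, Gata6, Thrb and Rxrb lay between 0.24 and 1.92, and several of these genes had a higher mean in another tissue, such as Gata6 in heart (8.42, against 5.75 in liver). Rxrb, the smallest of them, had an adjusted p of 0.0824 without liver replicate 3. The 5 lower factors were Esrrg (-2.37 ± 0.20), Rxrg (-1.26 ± 0.15), Nr2f1 (-0.90 ± 0.26), Thra (-0.81 ± 0.14) and Esrra (-0.64 ± 0.12). Those not called were Rora, Ppard, Gata4, Hnf4g, Lhx2, Cebpd, Zhx2 and Dbp, of which Hnf4g gave 2.50, 2.45 and 2.45 on the liver arrays.

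**Figure D3:**
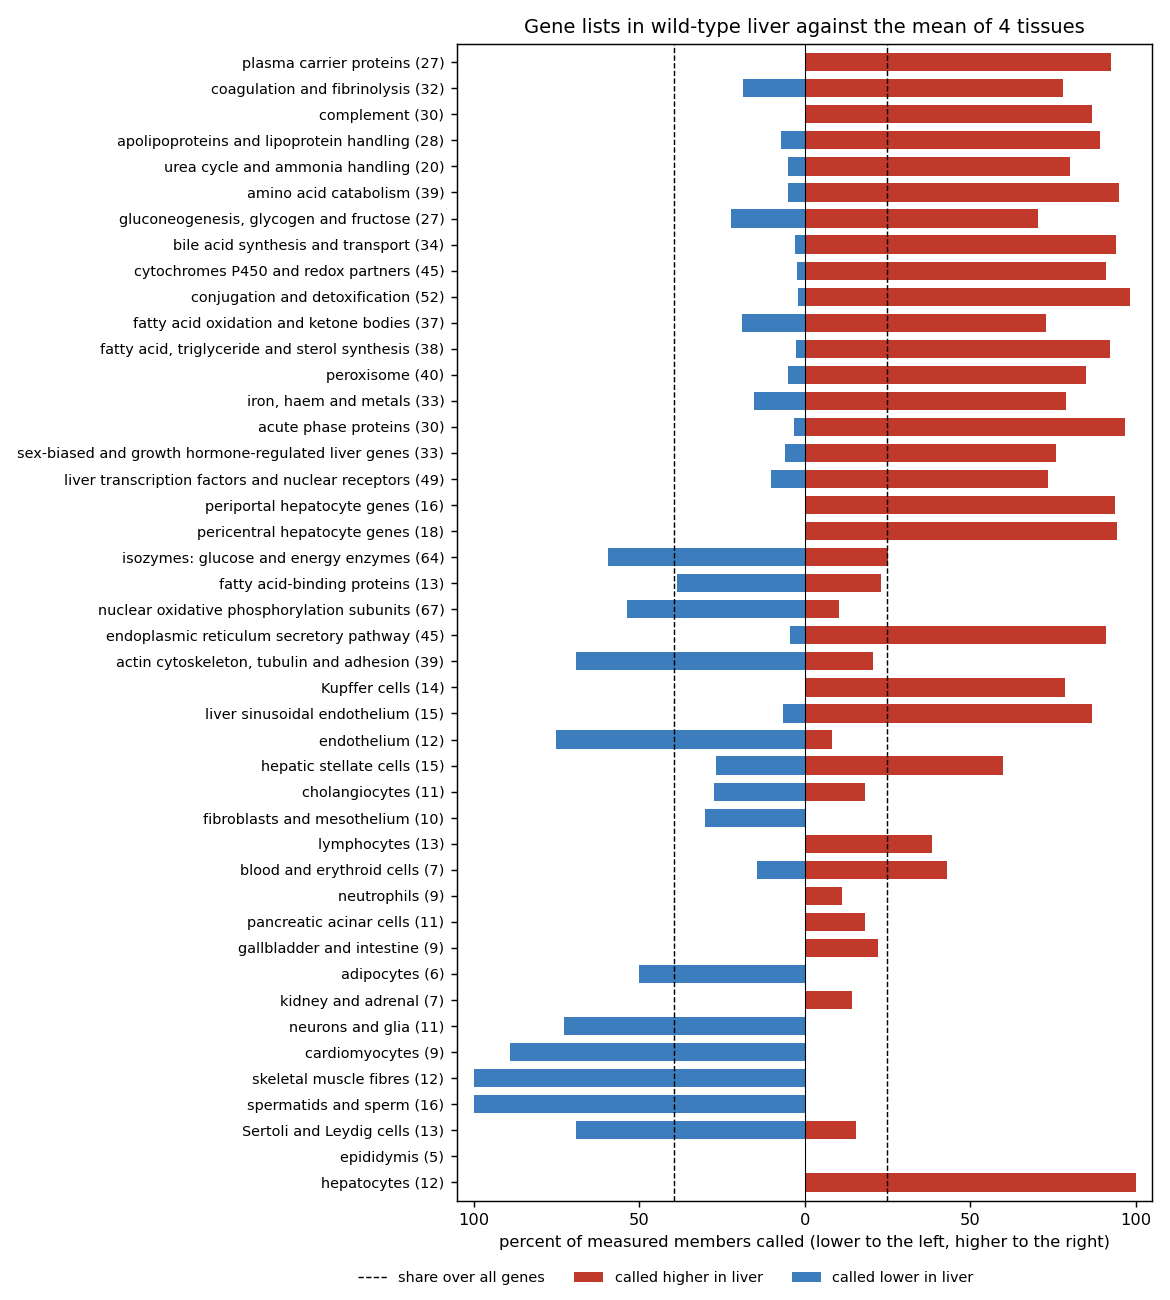
Percent of the measured members of each gene list (number in brackets) called higher in liver, drawn to the right, and called lower, drawn to the left; dashed lines mark the shares over all genes, 24.8% and 39.6%. Hepatocyte functions lie far to the right, and markers of muscle fibres, sperm, heart and neurons to the left.

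Many enzymes exist in tissue forms. Of 64 isozymes of glucose and energy metabolism 16 were higher, 38 lower and 10 not called. The share higher was 25.0%, against 24.8% over all genes, and the share lower 59.4%, against 39.6%. At the hexokinase step Hk1 was at -4.16 ± 0.18 and Hk2 at -4.61 ± 0.18, with liver means of 4.06 and 3.53; Hk3 was not called. At the phosphofructokinase step the muscle form Pfkm was at -4.51 ± 0.15 and the platelet form Pfkp at -4.42 ± 0.15, whereas the liver form Pfkl was not called (-0.27 ± 0.24). At the pyruvate kinase step the forms went opposite ways. The liver form Pklr was 5.78, 6.97 and 5.96 on the liver arrays and 2.57 to 3.41 on the others, a difference of 3.25 ± 0.19. The general form Pkm was 3.92, 3.73 and 3.80 on the liver arrays and 8.03 to 11.22 on the others, a difference of -6.08 ± 0.12. Lactate dehydrogenase Ldha was not called (0.15 ± 0.15), the heart form Ldhb was at -5.97 ± 0.14 and the sperm form Ldhc at -2.96 ± 0.54. Further down glycolysis the muscle forms Pgam2 and Eno3 were at -6.89 ± 0.24 and -5.10 ± 0.08, Aldoa at -3.45 ± 0.10 and Tpi1 at -0.64 ± 0.11. Aldoc and Gapdh were not called, and Pgk1 differed by 0.25 ± 0.09, with an adjusted p of 0.122 without liver replicate 3 and a testis mean of 6.97 against 10.50 in liver. The neural and sperm forms Eno2, Eno4, Gapdhs and Pgk2 lay between -2.40 and -1.79. Leaving testis out of the mean ended the calls of Ldhc, Pgk2, Gapdhs and Eno4 and turned Pgk1 to -0.84, and leaving out brain ended that of Eno2.

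Storage and release of sugar also divided by tissue form. Liver glycogen phosphorylase, Pygl, was higher by 7.04 ± 0.25, while the muscle form Pygm was at -4.49 ± 0.15 and the brain form Pygb at -3.49 ± 0.23. Liver glycogen synthase, Gys2, was higher by 6.22 ± 0.12 and the muscle form Gys1 was at -2.79 ± 0.14. Fructose bisphosphatase Fbp1 was 12.53, 12.49 and 12.50 in liver and 12.44, 12.46 and 12.24 in testis, 2 groups that lay within 1 log2 unit, and its difference from the mean was 7.12 ± 0.46; the muscle form Fbp2 was at -3.09 ± 0.16. Among glucose transporters Slc2a3 was at -5.11 ± 0.21 (its probe set not shared with other sequences gave -0.09, adjusted p = 0.499), the insulin-regulated Slc2a4 at -2.97 ± 0.07, and Slc2a1 was not called. Of the lactate and pyruvate transporters Slc16a7 was higher by 2.52 ± 0.35, with a larger mean still in testis (10.92, against 8.27 in liver), Slc16a3 was at -0.86 ± 0.11 and Slc16a1 was not called. Glycerol phosphate dehydrogenase Gpd1 was higher by 2.46 ± 0.22, Gpd1l was not called, and Gpd2 was at -0.59 ± 0.18, although another probe set of Gpd2 went the other way and without liver replicate 3 the difference was -0.26 (adjusted p = 0.119). The pyruvate dehydrogenase kinases Pdk2, Pdk3 and Pdk4 were at -1.33 ± 0.22, -2.03 ± 0.11 and -0.90 ± 0.28; Pdk1 and the subunit Pdha1 were not called. Without liver replicate 1 the difference of Pdk4 was -0.57 (adjusted p = 0.121).

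Liver makes creatine but is known not to store energy in it. Gamt, an enzyme of creatine synthesis, was higher by 4.04 ± 0.21. The creatine transporter Slc6a8 was at -3.45 ± 0.13, and the kinases Ckm, Ckmt2 and Ckmt1 were at -4.68 ± 0.10, -5.73 ± 0.08 and -1.47 ± 0.10. The adenylate kinases divided as well: Ak3 and Ak4 were higher by 2.62 ± 0.12 and 2.02 ± 0.18, and Ak1 was at -5.63 ± 0.10. Ampd2 and Adss were higher by 2.89 ± 0.16 and 0.96 ± 0.09, and Ampd3 and Adssl1 were at -2.55 ± 0.11 and -1.25 ± 0.15. Of the adenine nucleotide carriers, Slc25a4 was 5.80, 5.62 and 4.93 on the liver arrays and 8.24 to 13.27 on the others, a difference of -6.41 ± 0.14, while Slc25a5 was higher by 1.62 ± 0.14. For cytochrome oxidase the general forms Cox6a1 and Cox8a were higher, Cox8a by 0.92 ± 0.18 and Cox6a1 with liver values of 12.62, 12.62 and 12.45; the mean of each was larger still in another tissue. The heart and muscle forms Cox6a2, Cox8b and Cox7a1 were at -4.23 ± 0.24, -4.33 ± 0.11 and -4.08 ± 0.16, and Cox7a2 was at -0.36 ± 0.07.

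The fatty acid-binding proteins, small carriers of lipids in the cytosol, were high in different tissues. Of 13 members of the family 3 were higher in liver, 5 lower and 5 not called; these shares, 23.1% and 38.5%, lie near the 24.8% and 39.6% over all genes. The liver form Fabp1 and the form named for intestine, Fabp2, were both highest in liver, Fabp2 at 10.32, 10.72 and 8.84 on the liver arrays and 2.27 to 2.77 on the others, a difference of 7.45 ± 0.26. The heart form Fabp3 gave the largest negative difference of all genes: it was 3.58, 3.21 and 3.41 on the liver arrays, 13.41, 13.33 and 13.09 on the heart arrays and 8.56, 8.49 and 8.89 on the brain arrays, a difference of -7.40 ± 0.14 (adjusted p = 4.17e-15 in limma). The adipocyte form Fabp4 was at -1.77 ± 0.45, and the testis form Fabp9 at -2.74 ± 0.45 with testis values of 12.52, 12.18 and 12.40; neither was called when heart (Fabp4) or testis (Fabp9) was left out of the mean. The brain form Fabp7 was called at 0.42 ± 0.14: its liver mean of 4.60 lay above testis, muscle and heart but below the brain mean of 7.77. Without liver replicate 1 its difference was 0.19 (adjusted p = 0.183 in limma). Fabp5, Fabp6, Pmp2, Rbp2 and Crabp2 were not called, and Crabp1 and Rbp7 were at -0.38 ± 0.15 and -1.22 ± 0.22; the adjusted p of Crabp1 was 0.133 without liver replicate 1 and 0.147 without replicate 2. The median difference of the family was -0.29, but 0.01 with arrays centred on the genes tested, so the family as a whole has no settled direction.

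**Figure D4:**
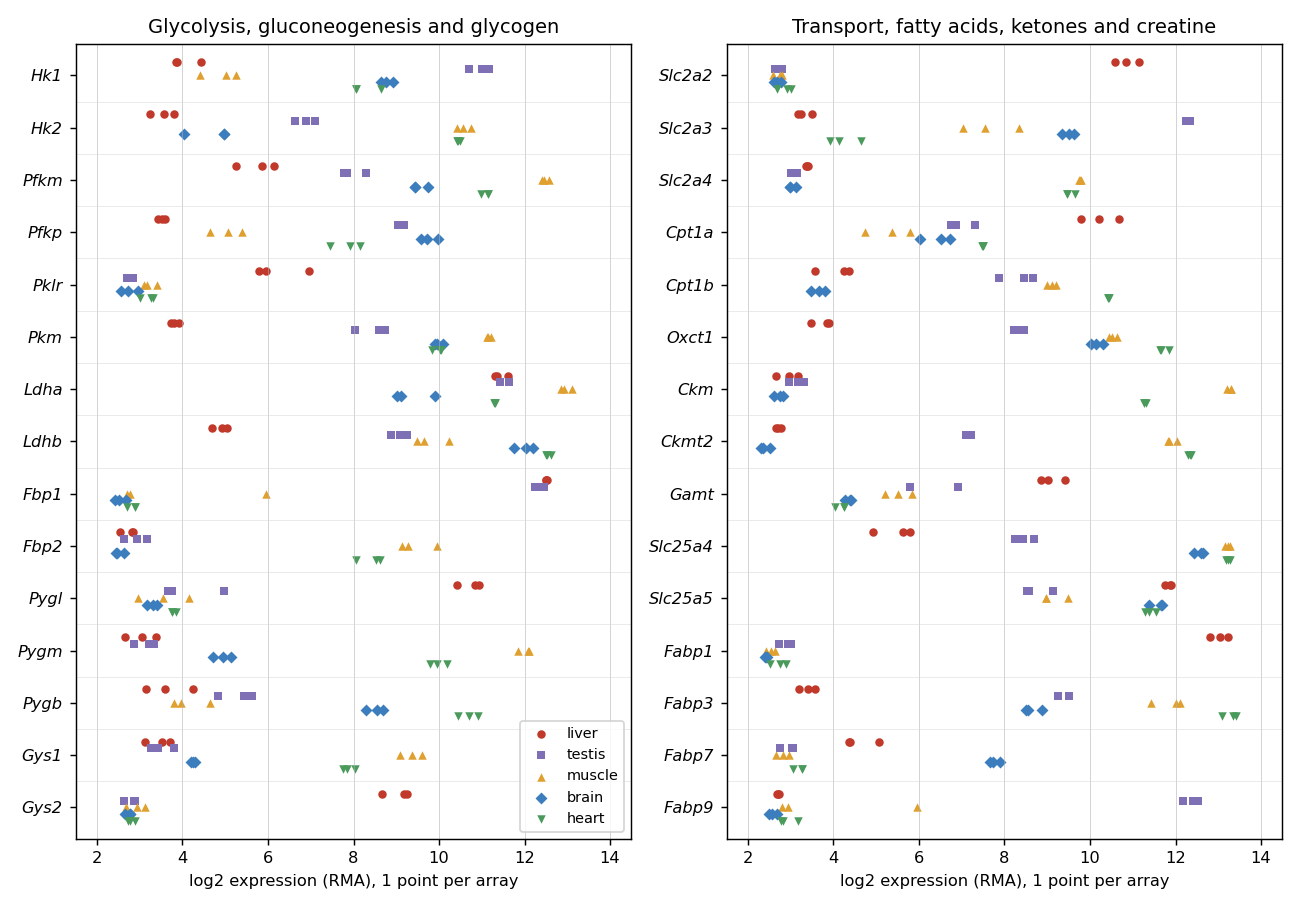
Log2 expression on each of the 15 arrays (horizontal axis, 1 point per array, coloured by tissue) for enzymes, transporters and fatty acid-binding proteins with tissue forms; rows are to be read within a gene only. Liver points lie at the right for Pklr, Pygl, Gys2, Slc2a2 and Fabp1 and at the left for Pkm, Hk1, Slc25a4, Ldhb and Fabp3; Fbp1 is as high in testis as in liver within 1 unit.

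The 15 largest negative differences were taken among called genes with all 3 liver arrays below all 12 others and a mean of at least 6 in each other tissue, which 508 genes met. They ran from -7.40 to -5.31, the largest adjusted p in limma was 1.04e-09, and the liver means lay between 2.39 and 5.45. Besides Fabp3, Oxct1, Slc25a4, Pkm, Ldhb, Ak1 and Acsl6, described above, they held 8 more genes. Cpe, the carboxypeptidase that trims peptide hormones in secretory granules, was 2.22, 2.49 and 2.47 on the liver arrays and 7.57 to 11.37 on the others, a difference of -7.07 ± 0.10. Enah, an actin regulator, was at -6.08 ± 0.16, the endoplasmic reticulum-shaping protein Reep1 at -5.92 ± 0.09 (-0.46 with a probe set not shared with other sequences) and the tubulin Tuba8 at -5.35 ± 0.30. Sparcl1, a matrix protein, was at -5.52 ± 0.16, the tetraspanin Tspan3 at -5.47 ± 0.12, Rab11fip5, which acts in membrane recycling, at -5.47 ± 0.17 and Sccpdh at -5.61 ± 0.14.

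The cytoskeleton list gave 8 higher and 27 lower of 39 members. These shares were 20.5% and 69.2%, against 24.8% and 39.6% over all genes, so the share higher lay near that over all genes. The epithelial keratins Krt18 and Krt8, the pair that hepatocytes use, differed by 6.50 ± 0.68 and 5.66 ± 0.23, and Tubb2a and Cnn3 by 2.38 ± 0.20 and 2.03 ± 0.18. On the lower side profilin Pfn2 was at -5.23 ± 0.11, Cap2 at -4.88 ± 0.27, Tuba1a at -4.13 ± 0.19 and vimentin (Vim) at -2.87 ± 0.31. Actb was not called (0.14 ± 0.12). The secretory pathway of the endoplasmic reticulum went the other way: 41 of 45 genes were higher and 2 lower, with a median of 1.27. The coat protein Sec24d differed by 3.39 ± 0.35, the disulfide isomerases Pdia4 and P4hb by 3.19 ± 0.24 and 2.84 ± 0.17, the cargo receptor Lman1 by 2.80 ± 0.21 and the chaperone Hspa5 by 1.12 ± 0.11. The lower genes, Spcs1 (-1.19 ± 0.11) and Stt3b (-0.44 ± 0.12), each had another probe set that went up.

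A list of nuclear genes of oxidative phosphorylation placed liver between the other tissues. Of 67 subunits 7 (10.4%) were higher and 36 (53.7%) lower than the mean of 4, against 24.8% and 39.6% over all genes. Their median was -0.29. With arrays centred on the genes tested the median was 0.00 and the counts were 21 and 18, so this small shift has no settled direction. Against single tissues the picture was sharper. Liver was lower than heart in 67 subunits and higher in 0, and lower than muscle in 64 and higher in 0. It was higher than testis in 59 and lower in 4, and against brain 17 were higher and 18 lower. The median levels of the list were 9.56 in testis, 10.50 in brain, 10.50 in liver, 11.54 in muscle and 11.97 in heart. Among these 67 subunits Ndufa12 of complex I had the lowest difference, -1.20 ± 0.09, but its probe set not shared with other sequences gave 0.03 (adjusted p = 0.909). The highest difference in the list was 0.55. The cytochrome oxidase forms Cox6a1, Cox6a2, Cox7a1, Cox8a and Cox8b, described above, lie outside this range and are not in the list. The small shift therefore does not describe those tissue forms.

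Markers of the Kupffer and sinusoidal endothelial cells of the liver were mostly higher in liver. Of 14 Kupffer cell markers 11 (78.6%) were higher than the mean of 4 and 0 lower, against 24.8% and 39.6% over all genes. Against heart alone 8 were higher and 3 lower, where the shares over all genes were 20.0% and 26.1%. Highest in liver were 6 of the 14, against 7.23% over all genes. Cd5l differed by 4.75 ± 0.13, Vsig4 by 3.93 ± 0.11 and Clec4f, which is restricted to Kupffer cells, by 3.33 ± 0.15. The general macrophage genes Csf1r, Adgre1 and Cd68 were not called. C6 heads the list by value but is a complement gene that hepatocytes make too. Of 15 sinusoidal endothelial markers 13 were higher than the mean of 4 and 1 lower, and against heart alone 10 and 1. Stab2 differed by 2.35 ± 0.15 and Fcgr2b by 3.26 ± 0.33; Clec4g differed by 4.84 ± 0.15, with another probe set that went down, and Aass by 6.61 ± 0.13, an enzyme that hepatocytes hold as well. Of 12 general endothelial markers 1 was higher and 9 lower than the mean of 4: Emcn was at -2.05 ± 0.17 and Pecam1 at -1.82 ± 0.12. With arrays centred on the genes tested 4 were lower. The direction differed by tissue: 7 were higher and 1 lower against testis and 4 and 4 against brain, whereas 0 were higher and 11 lower against muscle and 0 and 11 against heart. Stellate cell markers gave 9 (60%) higher and 4 (26.7%) lower of 15 against the mean of 4, but 6 higher and 6 lower against heart alone. Lrat, which esterifies vitamin A, differed by 2.89 ± 0.15 and Colec10 by 3.55 ± 0.22. Desmin (Des), a filament protein of muscle, differed by -3.44 ± 0.12, with a muscle mean of 11.57.

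Markers of further cell types gave mixed counts, to be read beside the 24.8% higher and 39.6% lower over all genes. Both shares lay under these in the cholangiocyte list (18.2% and 27.3%) and in the fibroblast and mesothelium list (0% and 30%). In the lymphocyte list 38.5% were higher. Of 11 cholangiocyte markers 2 were higher and 3 lower, and Krt7 and Krt19 were not called, with liver means of 2.90 and 2.97. The higher ones were Aqp1, a water channel that endothelium and red cells also hold, with a liver mean of 7.73 but a heart mean of 10.14, and Cdh1, which was 4.76, 4.59 and 8.25 on the liver arrays. Of 13 lymphocyte markers 5 were higher, and none had a liver mean above 4.04. Of 9 neutrophil markers 1 was higher, and the highest liver mean was 3.82. In the pancreatic list the elastase Cela1 differed by 5.06 ± 0.26, with liver values of 7.39, 8.25 and 9.35. Of the other 10 pancreatic markers only Prss1 was called, at 0.39 ± 0.11, and none had a liver mean above 3.21. In the gallbladder and intestine list Fabp2 and Tff3 were higher; Tff3 was 3.07, 3.63 and 6.45 on the liver arrays, and replicate 3 alone was high. Its difference of 1.43 ± 0.46 was 0.39 without that array (adjusted p = 0.0234 in limma). Markers of skeletal muscle fibres were lower than the mean of 4 in 12 of 12 cases, of sperm in 16 of 16, of cardiomyocytes in 8 of 9 and of neurons and glia in 8 of 11. These falls came mainly from 1 tissue each. Muscle fibre markers were lower in 12 cases against muscle, but in 3, 2 and 3 against testis, brain and heart. Sperm markers were lower in 16 against testis, but in 1, 1 and 0 against muscle, brain and heart. For cardiomyocytes 8 were lower against heart, but 4, 3 and 2 against testis, muscle and brain. For neurons and glia 11 were lower against brain, but 0, 3 and 1 against testis, muscle and heart, where 3, 1 and 2 were higher. Of 10 fibroblast and mesothelium markers 0 were higher and 3 lower, and decorin (Dcn), which was not called, had a liver mean of 9.86. Among red cell genes Hba-a1 was not called, at a liver mean of 12.31, while Alas2, the haem enzyme of red cell precursors, differed by 3.57 ± 0.14, Car1 by 2.31 ± 0.19 and Klf1 by 1.49 ± 0.11.

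The 3 liver arrays agreed closely for most genes and diverged in a few. Over the 5438 genes with a liver mean of at least 6, the median SD among liver arrays was 0.147, and 57 genes (1.05%) had an SD above 1. Replicate 3 departed most: 82 genes were more than 1 above and 74 more than 1 below the mean of the other liver arrays, against 28 and 59 genes for replicate 1 and 36 and 17 for replicate 2. Among these 5438, the 10 genes with the largest SD were Cyp4a10, Mfsd2a, Cxcl1, Orm2, Saa1, Saa2, Egr1, Vnn1, Plk3 and Lcn2. On replicates 1, 2 and 3 the acute phase genes Saa1, Saa2 and Orm2 were 8.93, 8.12 and 12.16, 8.63, 7.53 and 11.55 and 6.27, 6.25 and 10.11, and the chemokine Cxcl1 was 5.59, 4.52 and 9.16. These were highest on replicate 3. The median over the whole acute phase list was 10.49, 10.37 and 11.38. Of the other genes among these 10, some were lowest on replicate 3. Cyp4a10, a fatty acid hydroxylase and target of Ppara, was 10.22, 10.88 and 5.46, the pantetheinase Vnn1 9.67, 9.21 and 5.97, the lipid transporter Mfsd2a 9.20, 8.89 and 4.68 and Plk3, a kinase, 8.12, 6.29 and 4.13. All 4 were lowest on replicate 3, and the immediate early gene Egr1 was highest there, at 6.02, 4.96 and 8.96.

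Further genes were singled out after their values had been seen. Angptl4 was 9.26, 8.33 and 6.47, the fatty acid transporter Cd36 9.75, 9.88 and 7.16 and Crat 7.33, 6.91 and 5.22, again lowest on replicate 3. Of clock genes, Arntl was 5.98, 5.96 and 7.20 and Npas2 3.02, 3.21 and 4.86, both highest on replicate 3, whereas Dbp was 5.57, 6.35 and 3.06 and Tef 8.20, 8.33 and 7.12, both lowest there. The median over the whole list of fatty acid oxidation and ketone bodies was 10.45, 10.26 and 9.64 on replicates 1, 2 and 3, and that of the list of lipid synthesis 8.63, 9.60 and 9.70. Of lipid synthesis genes, Fasn was 9.52, 11.80 and 10.45, Acly 9.24, 10.80 and 10.59, Insig1 8.88, 10.13 and 10.25, Sqle 6.95, 8.32 and 9.64 and Idi1 8.72, 9.52 and 10.80, each lowest on replicate 1. Single genes stood out as well. Moxd1, a gene of the sex-biased list, was 2.93, 2.71 and 10.26, Cyp2b9 4.99, 7.38 and 2.66 and the adhesion gene Cdh1 4.76, 4.59 and 8.25. Angptl4 was called higher in liver, but its probe set not shared with other sequences gave 0.10 (adjusted p = 0.25). Without replicate 3 the differences of Cxcl1, Cdh1 and Crat were 2.25, 1.80 and -1.15, in place of 3.62, 2.99 and -1.79, and that of Tef was -0.29 (adjusted p = 0.0773) in place of -0.68. That of Plk3 was 1.51 without replicate 1, in place of 2.48, and that of Cyp2b9 1.11 without replicate 2 and 3.47 without replicate 3, in place of 2.30. Cd36, not called over all arrays, was higher by 1.89 without replicate 3 (adjusted p = 7.53e-06). Moxd1 was not called (adjusted p = 0.0741), and its mean of 5.30 describes none of the 3 arrays. The time of collection is not in the labels, and its part in these differences was not tested.

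**Figure D5:**
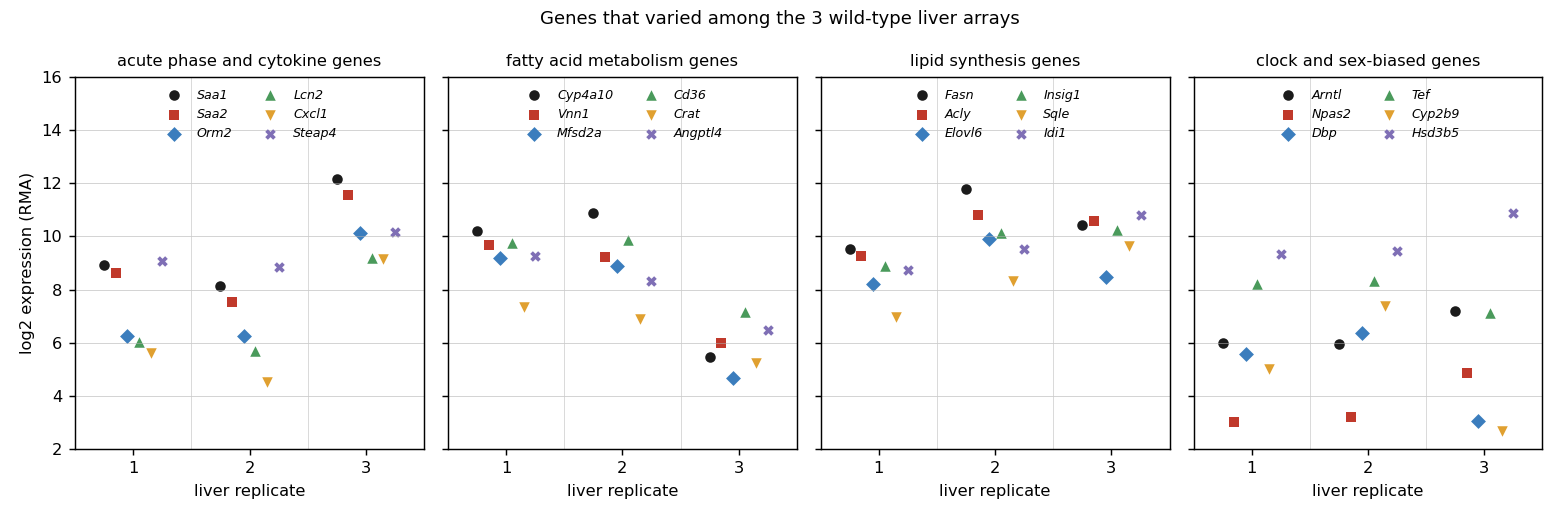
Log2 expression on liver replicates 1, 2 and 3 (horizontal axis) for 4 sets of genes that varied among them, 1 point per array. Saa1, Saa2, Orm2 and Cxcl1 are highest on replicate 3, Cyp4a10, Vnn1, Mfsd2a and Cd36 are lowest on it, and Fasn, Acly, Insig1 and Sqle are lowest on replicate 1.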

How the data were processed

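Total RNA of whole mouse tissues was hybridised to Affymetrix arrays, and 15 wild-type arrays, 3 for each of 5 tissues, were compared. The deposited values are log2 expression values that the authors made with RMA in R 2.14.0, per the submitters' processing notes; whether all 30 arrays were normalized together is not given in the sources used here. The values were used as deposited. Of 45141 probe sets, 28898 were paired with 1 gene in the platform annotation, 551 with several genes, which were left out, and 15692 with none. For each of 17097 genes 1 probe set was kept, that of the highest mean over all 30 arrays.

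The 5 group means were fitted in R 4.3.3 (limma 3.58.1), and liver minus the mean of the 4 other means was tested two-sided with Benjamini-Hochberg adjustment over all genes at 0.05; the 4 single-tissue contrasts were adjusted each on its own. No gene was filtered on its level. The fit was tested on simulated data for the same contrast over 17097 genes. It called 92% of 100 genes changed by 1 and 97% of 100 genes changed by 2 on the log2 scale. No other tissue differences were put in, and the noise was normal with 1 SD per gene. In the real data 64.5% of genes were called, so these shares apply to the simulated setting only. The members, the 45 gene lists and the tests were chosen with earlier results of these data known, and 162 list entries without a matching gene were not analysed here. Genes named were the 15 largest positive and negative differences under the limits given with them, up to 6 called members of a list in each direction, every measured transcription factor, isozyme and fatty acid-binding protein, and the 10 genes with the largest SD among liver arrays at a liver mean of at least 6; predicted genes and clone names are not among them. Other genes, among them all list members named as not called, were chosen after their values were seen. No list was given a test of its own.

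Replicate numbers are shared between the tissues. Deviations of liver arrays from their mean correlated with those of same-numbered arrays of the other tissues at -0.0025 to 0.0921, so the numbers were not treated as pairs. The alternatives tried were other normalizations, probe set choices, filters on dim genes, variance priors, array weights, a fit to all 30 arrays, replicate blocks, each tissue left out of the mean, the highest other tissue in place of the mean, and each array left out in turn. A probe set not shared with other sequences means one whose name does not carry the array maker's mark for shared probes.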

Additional observations from a re-analysis of the deposited data

Results flagged for a closer look

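Probe sets that the platform annotation pairs with no gene were not used in the comparisons above, and some of them were high in liver. Of 15588 such probe sets tested in the same way, without control probes, 2941 were higher and 3333 lower in liver. By at least 1, 545 were highest in liver and 106 were lowest in liver. Among the 17097 genes the same counts were 4243 (24.8%), 6777 (39.6%), 1236 (7.23%) and 370 (2.16%), each a larger share. The 545 are unnamed here, not without a gene. The largest differences were 10.42 ± 0.09, 10.37 ± 0.10 and 10.03 ± 0.08 (SE, 3 liver arrays against 12 others). With 3 arrays a tissue, no gene was tested for single outlying arrays.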

How the results depend on the processing

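The counts over all genes were recomputed under each alternative. Centring each array on its median over the genes tested, chosen after seeing the data, gave 7482 genes higher in liver and 235 lowest in liver. Among the 8548 genes above the median of overall means, 3841 were lower, 2191 lower by at least 1 and 781 highest in liver. Genes lowest in liver numbered 822 without testis in the mean and 570 without brain in it. Leaving out each array in turn gave 3930 to 4248 genes called higher in liver, 6271 to 6930 genes called lower in liver, 2239 to 2275 genes called higher by at least 1, 3532 to 3590 genes called lower by at least 1, 1215 to 1249 genes highest in liver and 362 to 378 genes lowest in liver. The replicate number as a fixed block gave 11050 called genes and as a random block 11018, in place of 11020. Of 345 genes named above, 260 kept their direction and side of the threshold in every alternative that refitted the contrast with a tissue mean. Signs turned for the following. With the mean of a gene's probe sets, Gpd2 was 0.28 and Stt3b 0.15, and with probe sets not shared, Ndufa12 was 0.026. Without testis in the mean Aqp1 was -0.098, Gpd2 0.33, Nfib -0.20, Pgk1 -0.84 and Serpina5 0.022. Without muscle Adssl1 was 0.013, Fabp7 -0.037 and Pdk4 0.15, without brain Ckmt1 was 0.12 and Aqp1 -0.088, and without heart Pdk4 was 0.20. Against the highest other tissue, with no test, the values were Acadm -1.09, Adss -0.17, Ak4 -0.088, Aqp1 -2.41, Cebpg -0.27, Clpp -0.44, Cox6a1 -0.36, Cox8a -1.11, Eif2s3y -0.14, Fabp7 -3.17, Gata6 -2.66, Gpd1 -0.076, Lcn2 -3.19, Nfia -0.16, Nfib -0.50, Nr3c1 -0.22, Pex13 -0.73, Pgk1 -1.46, Rxrb -0.058, Slc16a7 -2.65, Tubb2a -0.73 and Zbtb20 -0.31. The number of arrays and the background signal under low values limit the precision, and the cause of these changes was not tested beyond the change of setting itself.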
